A study of Mus musculus with 6 samples.

Results

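Collagens, laminins, matrix metalloproteinases, their TIMP inhibitors and the lysyl oxidases were followed in mouse liver RNA. Genes were chosen by symbol alone, as the protein-coding genes whose symbol is that of a numbered collagen chain, a laminin chain, Timp1 to Timp4, a numbered Mmp, Lox or Loxl1 to Loxl4, and 87 of the 54532 genes in the count table met this rule. One of them, Col4a3bp, encodes a ceramide transfer protein that only carries a collagen name. It is kept in the counts of members and stands outside the classes below.

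All 6 libraries came from livers of wild-type (WT) male C57BL/6J mice, which were 8 weeks old when assigned and had eaten a high-fat diet (HFD) for 4 weeks. The HFD group (replicates 1 to 3) stayed on this diet for 4 more weeks, and the HFD+allantoin group (replicates 4 to 6) did so with allantoin, an oxidation product of uric acid, in the drinking water. Doses of 0.06 and 0.3 mg/mL stand in the labels without being tied to single libraries. The sequenced livers were those of the higher-dose group, by the study's own account. Every animal was on the high-fat diet, and no chow-fed library was analysed here. The labels do not say whether libraries of a group came from separate mice, so p-values measure only the spread between these libraries. Total counts ran from 11326372 to 14601457, and the table holds 1 whole-number read count per gene and library.

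Fibrillar collagens form the tensile fibres of connective tissue, and fibril-associated collagens bind to their surface and set how they pack. Collagen IV and laminins build the basement membrane, while multiplexins such as collagen XVIII connect it to the tissue beneath. Metalloproteinases cut these proteins, TIMPs block the metalloproteinases, and lysyl oxidases crosslink collagen and elastin. In liver, stellate cells, portal fibroblasts, endothelial cells and hepatocytes each make a share of this matrix, and the space around the sinusoids holds little of it in health.

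Levels are given as CPM, read counts scaled to a common library size with edgeR's TMM factors, and differences as log2 fold changes of HFD+allantoin over HFD with the standard error (SE). A gene is called when its adjusted p, from edgeR's quasi-likelihood test with Benjamini-Hochberg adjustment over 12795 tested genes, is below 0.05. For single values the exact permutation test over 3 and 3 libraries has a smallest p of 0.1. Whole liver was sequenced, so fewer cells of a type and less RNA per cell cannot be told apart. Mitochondrial transcripts took 17.9% to 36.5% of the counts in HFD libraries and 6.92% to 11.4% in HFD+allantoin libraries, and the TMM factors ran from 0.756 to 0.951 and from 1.12 to 1.19. HFD replicate 2 also held adipose RNA. It had 520 counts of Adipoq and 115 of Lep, the adipocyte hormones adiponectin and leptin, where the other 5 libraries had 0 to 1 and 0. The gene fits were therefore also made without it, while the exact permutation tests used all 6 libraries only.

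The upstream sequence of 5 called genes is shown because they cover the largest falls among the collagens and a pair of membrane-bound metalloproteinases that changed in opposite directions. Each run is the stretch before the transcription start in RefSeq (GRCm38.p6), 250 bases long, or 222 bases for Mmp15, where the last 28 were left out because GENCODE M21 places them in the transcript. Capitals mark matches on either strand to GGGCGG (the GC box), CCAAT and TATAAA, some of which run together in Mmp14.
Col5a3, chr9:20815068-20815317, minus strand: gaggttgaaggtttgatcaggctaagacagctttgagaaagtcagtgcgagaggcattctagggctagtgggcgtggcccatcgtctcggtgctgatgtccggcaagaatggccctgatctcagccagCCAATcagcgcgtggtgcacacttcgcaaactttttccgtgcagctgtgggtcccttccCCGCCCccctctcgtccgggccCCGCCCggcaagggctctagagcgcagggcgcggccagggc
Col11a2, chr17:34038888-34039137, plus strand: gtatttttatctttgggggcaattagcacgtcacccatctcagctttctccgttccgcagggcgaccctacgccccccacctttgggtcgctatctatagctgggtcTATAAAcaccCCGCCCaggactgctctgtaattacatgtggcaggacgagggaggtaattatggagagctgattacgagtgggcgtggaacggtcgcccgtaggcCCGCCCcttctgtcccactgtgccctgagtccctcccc
Col20a1, chr2:180986285-180986534, plus strand: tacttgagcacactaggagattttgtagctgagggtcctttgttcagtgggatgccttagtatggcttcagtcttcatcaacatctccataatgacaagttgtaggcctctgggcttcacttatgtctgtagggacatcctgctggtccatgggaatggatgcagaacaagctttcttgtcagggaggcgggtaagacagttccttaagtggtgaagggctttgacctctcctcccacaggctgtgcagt
Mmp14, chr14:54431348-54431597, plus strand: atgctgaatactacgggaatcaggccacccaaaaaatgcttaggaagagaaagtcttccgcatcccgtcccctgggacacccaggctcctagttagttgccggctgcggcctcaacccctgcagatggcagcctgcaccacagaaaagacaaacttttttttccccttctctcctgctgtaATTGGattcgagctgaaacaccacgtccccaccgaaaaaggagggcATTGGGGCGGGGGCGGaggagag
Mmp15, chr8:95352046-95352267, plus strand: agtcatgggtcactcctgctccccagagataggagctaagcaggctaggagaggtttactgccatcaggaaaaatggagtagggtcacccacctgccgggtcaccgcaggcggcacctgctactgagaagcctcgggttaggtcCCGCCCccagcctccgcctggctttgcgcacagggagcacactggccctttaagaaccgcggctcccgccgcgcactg
Of the 14 called genes, 8 had a promoter in the RefSeq table, and 7 of these 8 held GGGCGG within 250 bases, the exception being Col20a1. For Col27a1 and Timp2 the whole window lies inside the gene as GENCODE M21 places it. For Timp3 only the first 210 bases lie before the gene, and its match starts at base 236. That motif stood in 55.3% of the 12381 promoters of tested genes and in 52.9% of the 34 promoters of tested members. For CCAAT the shares were 35.3% and 32.4%, for TATAAA 7.03% and 8.82%, and for CAGAC, the core bound by SMAD proteins, which is not capitalised above, 40.2% and 50%. These matches describe the letters of the windows only. Mmp14 and Mmp15 both held the GC box although their levels differed in opposite directions, and TATAAA was matched in Col11a2 alone among the 8.

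Of the 87 members, 44 had enough counts to be tested. Among these, 7 were called higher in HFD+allantoin than in HFD livers (15.9%) and 7 were called lower (15.9%), where 11.3% and 13.0% of all tested genes were called in those directions. The median log2 fold change was 0.035 over the tested members and -0.03 over all tested genes. The shares called were thus close to those of all genes, with equal numbers in each direction. CPM values did not overlap between groups in 9 members higher in HFD+allantoin and 8 lower, against 22.4% and 21.9% of all tested genes. Scaled by library size only, 9 members were called higher and 5 lower, beside 3162 and 674 of all tested genes.

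Leaving out HFD replicate 2 gave 8 members called higher (17.4% of 46 tested) and 7 called lower, where 9.83% and 12.5% of all 13150 genes tested were called, and a median of 0.36. The same 7 members were lower and 5 of the higher members were shared with the fit on 6 libraries. Lama1, Lamc1 and Mmp2 joined, and Col1a1 and Loxl2 left. Of the 14 calls, those in Col14a1, Col5a3, Col27a1, Col11a2, Mmp15 and Mmp19 (6 genes) held under every alternative in which the gene was tested. Col11a2 was not tested under the filter of at least 10 counts in every library.

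**Figure D1:**
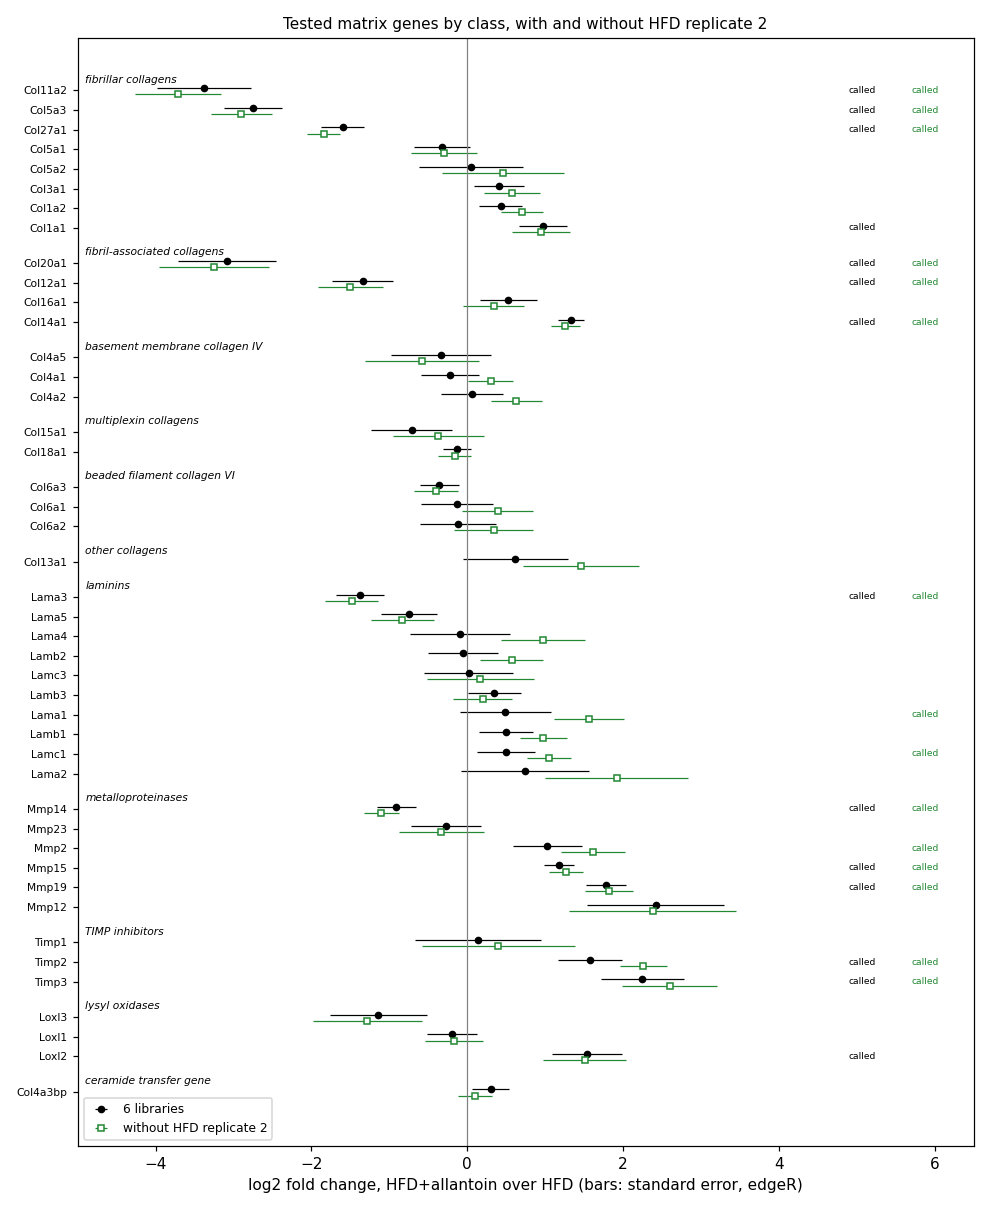
Log2 fold changes (HFD+allantoin over HFD, x axis) of the 44 tested members, grouped by class, from the fit on 6 libraries (filled) and without HFD replicate 2 (open), with bars for the standard error. The word "called" at the right marks genes called in the fit on 6 libraries (black) and without HFD replicate 2 (green). TIMPs and metalloproteinases lie mostly right of 0, and fibrillar and fibril-associated collagens spread to both sides. Most laminins shift to the right without HFD replicate 2, while Lama3, Lama5 and Lamb3 shift slightly to the left.

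Fibrillar collagens moved in both directions. The minor chains Col5a3, Col27a1 and Col11a2 fell, and Col1a1, a chain of collagen I, rose, while the other chains of collagens I, III and V were not called. Of 11 genes 8 were tested, the class median was -0.14 (0.31 with library-size scaling and 0.12 without HFD replicate 1), and Col2a1 and Col11a1, chains of cartilage collagens, had no count in any library.

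Col5a3 (ENSMUSG00000004098, chr9:20770050-20815067) encodes a chain of collagen V, which joins collagen I fibrils and is known from fat and muscle. HFD livers had 164, 78.6 and 56.6 CPM and HFD+allantoin livers 16.8, 14.5 and 13.2 CPM. No library overlapped, and the HFD libraries spread far more widely than the others. The mean went from 99.8 ± 56.8 to 14.8 ± 1.83 CPM (SD, n = 3 each), which is -2.75 as log2 fold change (SE 0.37, edgeR adjusted p = 0.00348), or 6.73-fold lower. Leaving out HFD replicate 1, the highest library, gave -2.19 (edgeR adjusted p = 0.00333), and without HFD replicate 2 the value was -2.90 (0.00495).

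Col27a1 (ENSMUSG00000045672, chr4:63214004-63334991), a fibrillar chain of cartilage and developing tissues, had 52.3, 25.1 and 40.6 CPM in HFD and 14.3, 14.1 and 10.5 CPM in HFD+allantoin livers. Its lowest HFD library was still above every HFD+allantoin library, and the log2 fold change was -1.60 (SE 0.27, edgeR adjusted p = 0.0055). Col11a2 (ENSMUSG00000024330, chr17:34039437-34066685), a chain of collagen XI, stood at far lower levels, with 3.17, 1.88 and 6.27 CPM against 0.513, 0.355 and 0.202 CPM. Its 3 values in HFD+allantoin livers rest on 7, 6 and 3 counts. The log2 fold change was -3.38 (SE 0.60, edgeR adjusted p = 0.00642), and it was -2.79 without HFD replicate 3 (0.0105).

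Col1a1 (ENSMUSG00000001506, chr11:94936224-94953042) and Col1a2 encode the chains of collagen I, the main collagen of scar tissue. For Col1a1 the levels were 6, 7.60 and 9.95 CPM in HFD and 10.8, 13.4 and 22.2 CPM in HFD+allantoin livers. The groups were separate but close, and replicate 6 was highest. The log2 fold change was 0.97 (SE 0.31) with an edgeR adjusted p of 0.0491, and this call was lost with limma-voom (0.0744), with length and GC trends removed (0.0805) and without HFD replicate 1 (0.125) or 2 (0.0991) or HFD+allantoin replicate 4 (0.0536), 5 (0.101) or 6 (0.188). Col1a2 had means of 13.3 ± 4.07 and 18 ± 5.17 CPM (SD, n = 3, log2 fold change 0.43, edgeR adjusted p = 0.281). Col3a1, the chain of reticular collagen III, had 27.8 ± 7.60 and 36.8 ± 16.1 CPM (0.41, 0.374), of which replicate 6 alone held 55.1 CPM. Col3a1 overlaps the gene model Gm47302 on the same strand. Neither Col5a1 (-0.32, edgeR adjusted p = 0.547) nor Col5a2 (0.047, 0.969) was called.

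Summed over the class, the HFD libraries held 281, 175 and 149 CPM of fibrillar collagen and the HFD+allantoin libraries 87, 96.4 and 136 CPM. These sums did not overlap (0.527-fold, exact permutation p = 0.1, the smallest possible, two-sided), but they did with library-size scaling, at 141 to 211 against 103 to 151. Col5a3 and Col27a1 made up 77.1%, 59.3% and 65% of these counts in HFD and 35.7%, 29.6% and 17.5% in HFD+allantoin livers. Without that pair the sums were 64.2, 71.3 and 52.3 CPM against 55.9, 67.9 and 112 CPM and overlapped. The order of the class was therefore set by the minor chains, and Col1a1, Col1a2 and Col3a1 together held 46.7, 59 and 41.1 CPM in HFD and 49.6, 60.1 and 101 CPM in HFD+allantoin livers.

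**Figure D2:**
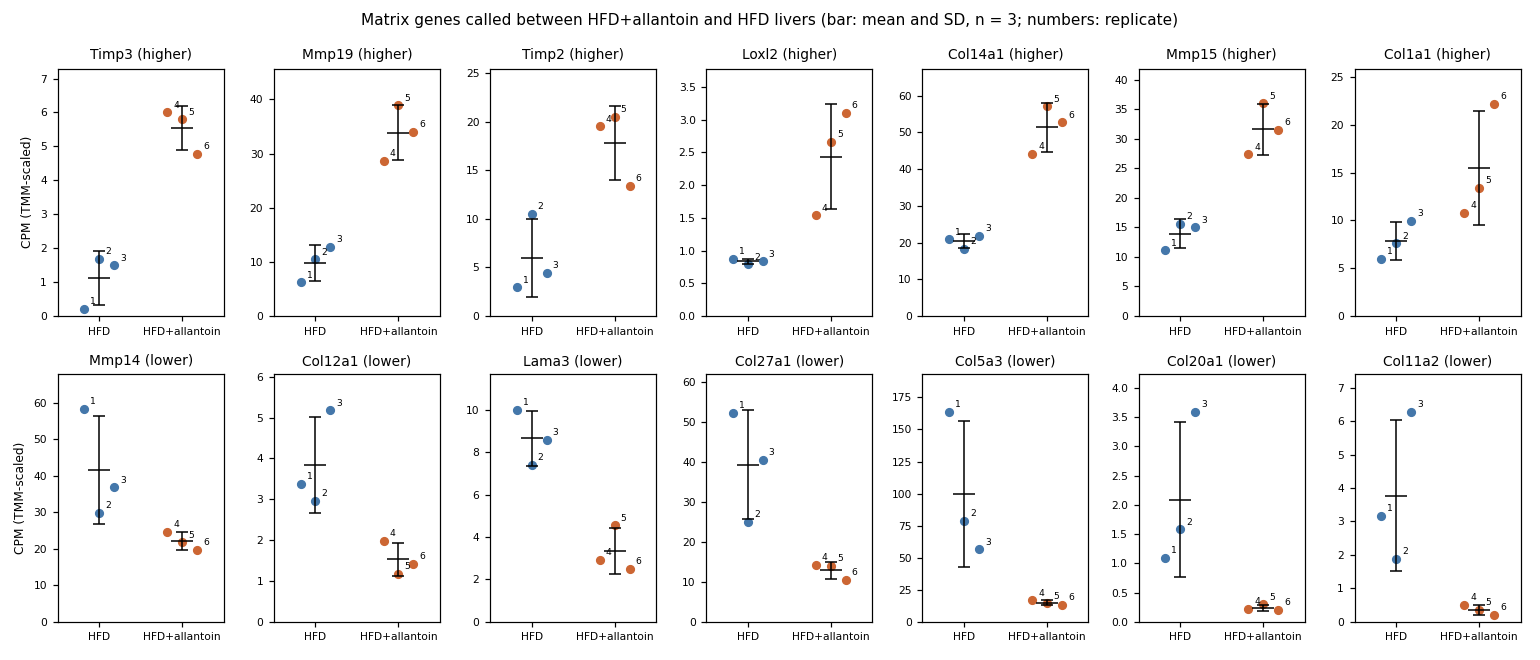
CPM (TMM-scaled, y axis from 0) of the 14 called members in each library, with HFD in blue, HFD+allantoin in orange, replicate numbers beside the points and bars for mean and SD (n = 3). In all 14 panels the groups are separate, and the SD is largest in HFD for Col5a3 (56.8 CPM) and in HFD+allantoin for Col14a1 (6.55 CPM).

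Fibril-associated collagens also divided. Col14a1 rose while Col20a1 and Col12a1 fell, Col16a1 was not called, and the 5 other genes of the class did not reach the tested level. Col14a1 (ENSMUSG00000022371, chr15:55307750-55520803), which decorates collagen I fibrils in dense connective tissue, had 20.9, 18.3 and 21.9 CPM in HFD and 44.2, 57.1 and 52.7 CPM in HFD+allantoin livers. Replicates lay close together, and the gap between the groups was wider than the range of either. The mean changed from 20.3 ± 1.87 to 51.3 ± 6.55 CPM (SD, n = 3), or by 1.33 as log2 fold change (SE 0.17, edgeR adjusted p = 0.00301), the smallest adjusted p among the members.

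Col12a1 (ENSMUSG00000032332, chr9:79598991-79718831), a close relative of Col14a1, had 3.38, 2.96 and 5.18 CPM against 1.98, 1.18 and 1.42 CPM. Its log2 fold change of -1.34 (SE 0.39, edgeR adjusted p = 0.0373) lost the call with library-size scaling (0.116) and without HFD replicate 1 (0.0502) or 3 (0.0952) or HFD+allantoin replicate 4 (0.0743), 5 (0.145) or 6 (0.116). Col20a1 (ENSMUSG00000016356, chr2:180986535-181018363), which overlaps BX649560.1 on the same strand, had 10, 16 and 43 counts in HFD and 3, 5 and 3 counts in HFD+allantoin livers. Such low counts gave a log2 fold change of -3.08 (SE 0.63, edgeR adjusted p = 0.0101), which was -2.42 without HFD replicate 3 (0.0227) and was not called without HFD+allantoin replicate 4 (0.0534) or 5 (0.0521). Because Col14a1 is the most abundant of them, the class sum was 27.5, 24.3 and 33.7 CPM in HFD and 49.4, 61.1 and 58 CPM in HFD+allantoin livers (1.97-fold, exact permutation p = 0.1), although the median of the 4 tested genes was -0.41. Over the class genes tested in each case, the median was -0.0038 with library-size scaling and -1.23 with no filter. It was 0.52 with CPM over 1 in at least 3 libraries and 0.54 with at least 10 counts in every library.

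No collagen IV, collagen VI or multiplexin gene was called in the fit on 6 libraries. Col18a1, which encodes the precursor of endostatin and is made by hepatocytes, was by far the most abundant member. It had 654, 567 and 552 CPM in HFD and 558, 612 and 451 CPM in HFD+allantoin livers, means of 591 ± 55.2 and 540 ± 81.7 CPM (SD, n = 3, log2 fold change -0.13, SE 0.18, edgeR adjusted p = 0.628). The groups overlapped, and this gene alone supplied 49.6% to 60.4% of all counts of the matrix members in a library. Col15a1, the other multiplexin, had 7.23 ± 4.61 and 4.38 ± 0.739 CPM (-0.71, edgeR adjusted p = 0.347). HFD replicate 3 held 1.92 CPM of it against 9.61 and 10.2 CPM in replicates 1 and 2, and without that library Col15a1 was called lower (-1.17, 0.0125).

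Col4a1 and Col4a2, the paired chains of the common collagen IV network, lie head to head on chromosome 8, and their annotated ends overlap on opposite strands. Col4a1 had 14.1, 46.5 and 26.4 CPM in HFD and 20.4, 25.4 and 29.2 CPM in HFD+allantoin livers. HFD replicate 2 was 3.3 times as high as HFD replicate 1 and above all other libraries. With that library the log2 fold change was -0.22 (edgeR adjusted p = 0.701), and without it 0.30 (0.482). Col4a2 turned from 0.066 (edgeR adjusted p = 0.922) to 0.63 (0.203) in the same way, and its level was also highest in HFD replicate 2, at 25.5 CPM. Col4a5, at 1.08 ± 0.494 and 0.837 ± 0.547 CPM (SD, n = 3), was not called either (-0.34, edgeR adjusted p = 0.731).

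The collagen VI chains, which form beaded filaments beside basement membranes, followed that library less evenly. Col6a1 had 11.8, 17.6 and 3.76 CPM in HFD and 8.36, 13.2 and 8.57 CPM in HFD+allantoin livers, and its log2 fold change went from -0.13 (edgeR adjusted p = 0.867) to 0.39 (0.571) without HFD replicate 2. Col6a2 went from -0.12 to 0.34, whereas Col6a3 stayed below 0 at -0.36 and -0.40. None of these values passed the test in either fit.

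**Figure D3:**
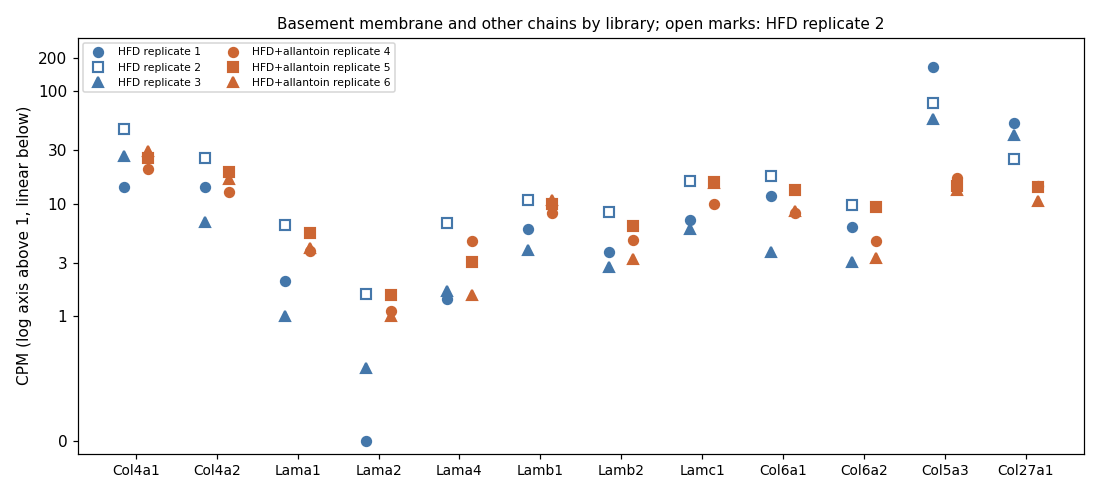
CPM (y axis, logarithmic above 1 and linear below) of basement membrane and collagen VI chains by library, with HFD in blue and HFD+allantoin in orange and an open square for HFD replicate 2. That library is the highest HFD library for Col4a1, Col4a2, the laminin chains and the collagen VI chains shown, but not for Col5a3 or Col27a1.

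Laminins are trimers of an α, a β and a γ chain. Of the 11 genes 10 were tested, and in 6 libraries 1 was called, Lama3 (ENSMUSG00000024421, chr18:12333819-12583013), the α chain of the laminin that anchors epithelia. It fell from 10, 7.41 and 8.61 CPM in HFD to 2.93, 4.55 and 2.50 CPM in HFD+allantoin livers, without overlap (log2 fold change -1.38, SE 0.31, edgeR adjusted p = 0.0141). The call was lost without HFD+allantoin replicate 4 (0.064) or 6 (0.0561). Its partner chain Lamb3 was not called, at 9.16 ± 3.99 and 11.6 ± 3.80 CPM (SD, n = 3, log2 fold change 0.35, edgeR adjusted p = 0.485). Lama5, a widespread α chain of mature basement membranes, had 5.57, 4.44 and 5.27 CPM against 1.98, 4.38 and 2.70 CPM, which did not overlap but was not called (-0.75, edgeR adjusted p = 0.156).

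The values of Lama1, Lamb1 and Lamc1, which together form an embryonic laminin, depended on HFD replicate 2. Lamc1, the common γ chain, had 7.21, 15.8 and 5.94 CPM in HFD and 9.90, 15.6 and 15.3 CPM in HFD+allantoin livers. HFD replicate 2 was the highest of the 6 libraries, and the other HFD libraries lay below every HFD+allantoin library. The log2 fold change was 0.50 (edgeR adjusted p = 0.349) with that library and 1.05 without it (0.0335). For Lama1 the values were 0.49 (edgeR adjusted p = 0.574) and 1.56 (0.0421), on 2.07, 6.52 and 1 CPM against 3.81, 5.50 and 4.05 CPM. Lamb1 reached 0.98 without HFD replicate 2, with an edgeR adjusted p of 0.05 that did not pass the threshold. The median of the class went from 0.19 to 0.77, with 2 genes called higher and 1 lower in the smaller fit, and HFD replicate 2 had the highest laminin sum of all libraries, at 69.9 CPM against 37.5 to 61.8 CPM.

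Metalloproteinases changed in both directions. Mmp19 and Mmp15 rose and Mmp14 fell, 3 further genes were tested without a call, and 16 of the 22 genes were too low to test. The median of these 6 was 1.11, and 1.44 without HFD replicate 2. Without HFD replicate 3, where the set of tested metalloproteinases was not the same, the median was 0.71. With no filter, over nearly the whole class, it was 0.13. Mmp19 (ENSMUSG00000025355, chr10:128790910-128800824), a secreted enzyme that cuts basement membrane proteins, had 6.22, 10.5 and 12.8 CPM in HFD and 28.7, 38.9 and 34.0 CPM in HFD+allantoin livers. The lowest HFD+allantoin library was above every HFD library by more than the range of either group. It changed from 9.83 ± 3.33 to 33.9 ± 5.07 CPM (SD, n = 3), or by 1.78 as log2 fold change (SE 0.26, edgeR adjusted p = 0.00396), and it overlaps Gm47093 and Tmem198b on the opposite strand.

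Mmp14 and Mmp15 encode membrane-type metalloproteinases, which are anchored in the cell surface, and Mmp14 is known to activate the proenzyme of Mmp2. Mmp15 (ENSMUSG00000031790, chr8:95352268-95375080) had 11.1, 15.6 and 15 CPM in HFD and 27.4, 36.0 and 31.5 CPM in HFD+allantoin livers. Mmp14 (ENSMUSG00000000957, chr14:54431612-54445364) had 58.3, 29.9 and 36.8 CPM against 24.6, 21.8 and 19.8 CPM. Neither gene overlapped between groups. Per kilobase of exon Mmp14 was above Mmp15 in every HFD library and below it in every HFD+allantoin library. The log2 fold changes were 1.18 (SE 0.19, edgeR adjusted p = 0.00512) for Mmp15 and -0.91 (SE 0.25, edgeR adjusted p = 0.0285) for Mmp14. The Mmp14 call was lost with library-size scaling (-0.46, 0.149) and without HFD+allantoin replicate 4 (0.0732), 5 (0.104) or 6 (0.104).

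Mmp2, the gelatinase of mesenchymal cells, had 1.64, 3.26 and 1 CPM in HFD and 4.18, 3.55 and 4.32 CPM in HFD+allantoin livers. These did not overlap, and HFD replicate 2 lay nearest to the other group. The log2 fold change was 1.03 (edgeR adjusted p = 0.118), and it was called without that library (1.62, 0.0293) and with library-size scaling (1.45, 0.0338). Mmp12, the macrophage elastase, had the largest log2 fold change of the class, 2.42, without a call (edgeR adjusted p = 0.0746), and 146 of its counts were in replicate 6 alone, against 28 and 26 in replicates 4 and 5. It was called with DESeq2 (adjusted p = 0.0127), with library-size scaling (edgeR adjusted p = 0.0372), with no filter (1.9e-05) and without HFD replicate 3 (3.26, 0.0455), and its value was 1.11 (0.379), below that of Mmp19, without HFD+allantoin replicate 6. Mmp13, a collagenase, was also highest there, with 25 counts against at most 5 elsewhere. The class sum was 81.6, 65.6 and 72.6 CPM in HFD and 90.9, 105 and 105 CPM in HFD+allantoin livers (1.37-fold, exact permutation p = 0.1).

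TIMPs were higher in HFD+allantoin livers in 2 of 3 tested genes. Timp2 (ENSMUSG00000017466, chr11:118301069-118355740), which inhibits most metalloproteinases and binds Mmp14, had 2.95, 10.5 and 4.43 CPM in HFD and 19.5, 20.5 and 13.4 CPM in HFD+allantoin livers. HFD replicate 2 again lay nearest to the other group. The mean rose from 5.95 ± 3.98 to 17.8 ± 3.83 CPM (SD, n = 3), or by 1.58 as log2 fold change (SE 0.41, edgeR adjusted p = 0.0252), which was 2.26 without HFD replicate 2 (0.00488). Timp3 (ENSMUSG00000020044, chr10:86300372-86349506), the inhibitor that stays bound to matrix, had 2, 17 and 18 counts in HFD and 82, 98 and 71 counts in HFD+allantoin livers. That amounts to 1.13 ± 0.798 and 5.53 ± 0.651 CPM (SD, n = 3), and the log2 fold change was 2.25 (SE 0.53, edgeR adjusted p = 0.0175).

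Both TIMP calls were lost without HFD+allantoin replicate 4 (0.0809 for Timp2 and 0.0665 for Timp3) or 5 (0.0935 and 0.0703). Timp3 lies within Syn3, which is on the opposite strand. Timp1, a marker of injured liver, was not called, at 0.789 ± 0.590 and 0.901 ± 0.582 CPM (SD, n = 3, log2 fold change 0.14, edgeR adjusted p = 0.918). Timp4 had 19 counts in HFD replicate 2 and 0 in the other 5 libraries, which allows up to 3 counts in each. It did not pass the filter, and with no filter it was called lower on that library alone (edgeR adjusted p = 0.00918). The sum of the class was 3.28, 15.1 and 7.11 CPM in HFD and 26.8, 26.6 and 19.4 CPM in HFD+allantoin livers, without overlap (2.85-fold, exact permutation p = 0.1, and 4.67-fold without HFD replicate 2).

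Of the lysyl oxidases, Loxl2 (ENSMUSG00000034205, chr14:69609068-69695834), which crosslinks collagen IV, was called higher. Its level was 0.873, 0.790 and 0.836 CPM in HFD and 1.54, 2.66 and 3.10 CPM in HFD+allantoin livers, on 8 to 10 and 21 to 46 counts. The log2 fold change of 1.54 (SE 0.45) had an edgeR adjusted p of 0.0356, which no longer passed with limma-voom (0.0639) or after leaving out any 1 library (0.0578 to 0.139). Loxl1 (-0.20, edgeR adjusted p = 0.68) and Loxl3 (-1.14, 0.205) were not called, and Lox itself, with 1 to 20 counts, was not tested. Loxl2 overlaps Gm27177 on the opposite strand and Mir6950 on the same strand. The class sum overlapped between groups, at 9.50, 8.79 and 6.27 CPM against 7.40, 7.75 and 7.56 CPM, but did not with library-size scaling, at 5.93 to 7.86 against 8.41 to 8.97.

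**Figure D4:**
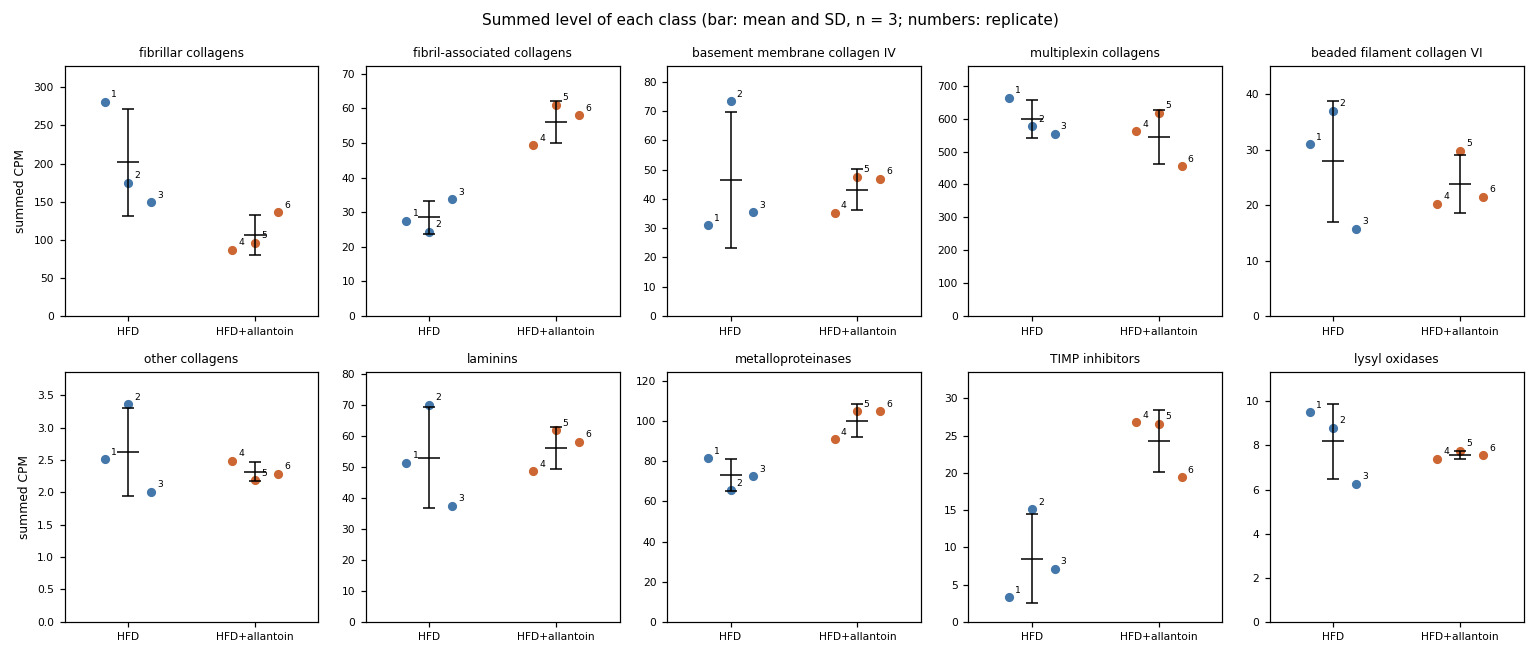
Summed CPM of each class (y axis from 0) by library, with HFD in blue, HFD+allantoin in orange, replicate numbers beside the points and bars for mean and SD (n = 3). Fibrillar collagens lie lower in HFD+allantoin livers (they overlap with library-size scaling), and fibril-associated collagens, metalloproteinases and TIMPs lie higher, without overlap, while the other classes overlap.

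Remaining collagens were scarce. Col13a1, a transmembrane collagen of cell junctions, was the only tested gene of 10, at 0.787 ± 0.610 and 1.21 ± 0.621 CPM (SD, n = 3, log2 fold change 0.62, edgeR adjusted p = 0.533). Col8a1, a collagen of vessel walls, and Col23a1, a transmembrane collagen, had at most 10 counts in any library. Of the 43 members not tested, 7 had no count anywhere, 13 had at most 3 counts in any library, and the other 23 reached at most 25. The 20 members at 3 counts or fewer were 7 metalloproteinases, 5 fibril-associated collagens, 4 of the other collagens, and 2 each of the fibrillar and collagen VI genes. Absence cannot be read from such counts at this depth. Col4a3bp had 24.3 ± 8.86 and 29.9 ± 1.65 CPM and was not called (0.30, edgeR adjusted p = 0.398) except without HFD replicate 3 (0.64, 0.0285).

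Per kilobase of exon, the ranking of members changed below Col18a1, which was top in both groups at 84.2 ± 7.86 and 76.9 ± 11.6 CPM per kb (SD, n = 3). In HFD livers Col5a3 (14.7 CPM per kb), Mmp14 (6.99) and Col4a1 (3.89) followed. In HFD+allantoin livers Mmp19 (9.59 CPM per kb), Col14a1 (7.32), Mmp15 (5.86) and Timp2 (4.57) came next, and Col5a3 (2.18) had moved from rank 2 to rank 13. Several neighbours in this order did not differ beyond their spread, among them Col14a1, Col3a1, Mmp19 and Mmp15 in HFD livers, at 2.90 ± 0.267, 2.83 ± 0.774, 2.78 ± 0.943 and 2.58 ± 0.451 CPM per kb. Summed over all members the level was 1204, 1066 and 948 CPM in HFD and 958, 1087 and 939 CPM in HFD+allantoin livers, which overlapped (exact permutation p = 0.6). Scaled by library size only, these sums were 897 to 953 and 1044 to 1258, higher in HFD+allantoin livers.

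Ratios between partner genes, taken per kilobase, did not separate the groups when all 6 libraries were used. In HFD livers Col1a1 over Col1a2 was 1.13, 0.805 and 1.56, and in HFD+allantoin livers 1.48, 1.55 and 1.77. Col4a1 over Col4a2 was 0.88, 1.62 and 3.42 against 1.43, 1.17 and 1.56. The sum of metalloproteinases over the sum of TIMPs was 17.3, 3.13 and 5.68 against 2.8, 3.81 and 4.39, with the wider spread in HFD. Without HFD replicate 2 this ratio did not overlap between groups. Neither did Lama4 over Lama5, at 0.241 and 0.3 against 2.2, 0.65 and 0.543. The other ratios overlapped without that library too, and no ratio was tested without it. Over 9 such ratios the exact permutation p ran from 0.2 to 1 and the adjusted p from 0.6 to 1.

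Genes that make, bind or regulate matrix were read from lists. Of 22 tested genes of collagen biosynthesis, 1 was called higher and 2 lower, and the median of the list was -0.25 (log2), or 0.16 with library-size scaling. Colgalt1, which attaches galactose to collagen, rose from 16.3 ± 4.63 to 52.7 ± 7.22 CPM (SD, n = 3, log2 fold change 1.70, edgeR adjusted p = 0.00365). Fkbp14, a collagen chaperone (-1.34, edgeR adjusted p = 0.019), and Plod3, a lysyl hydroxylase (-0.64, 0.0401), fell. Without HFD replicate 2 the counts were 4 and 2. Crtap (1.65, edgeR adjusted p = 0.0301), Sparc (0.83, 0.0191) and P3h2 (6.84, 0.0219) joined Colgalt1 as higher. P3h2 had 0 counts in every HFD library and 22, 17 and 9 in HFD+allantoin replicates 4, 5 and 6. Plod3 was not called (-0.56, edgeR adjusted p = 0.0869), and P4ha1, a prolyl hydroxylase subunit, was lower (-1.45, 0.0291).

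Of 24 tested matrix glycoproteins and proteoglycans, 6 were called higher and 3 lower (9 and 3 without HFD replicate 2, 9 and none with library-size scaling), with a median of 0.47. Decorin (Dcn) had 78.7, 118 and 83.2 CPM in HFD and 176, 197 and 200 CPM in HFD+allantoin livers (log2 fold change 1.03, edgeR adjusted p = 0.00785). Biglycan (Bgn, 1.20, edgeR adjusted p = 0.00502) and lumican (Lum, 2, 0.0107), 2 more small leucine-rich proteoglycans that bind collagen fibrils, rose as well, as did Efemp1, a fibulin (1.09, 0.00906). The summed level of the list was lower, at 3013 to 3319 CPM against 3607 to 4509 CPM, and vitronectin (Vtn), a hepatocyte product among the 3 that fell, supplied much of it, at 2862 ± 631 and 1477 ± 24.4 CPM. With library-size scaling these sums overlapped, at 3580 to 3842 and 3384 to 4031.

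Of 21 tested matrix receptors 7 were called higher and 2 lower (10 and 2 with library-size scaling), with a median of 0.50, and the counts were equal without HFD replicate 2, where Itga1 replaced Sdc1 among the higher genes. Itga9, an integrin subunit for tenascin and osteopontin, rose (1.82, edgeR adjusted p = 0.00392), as did the laminin receptor dystroglycan (Dag1, 1.04, 0.00531). Itga5, the fibronectin receptor subunit (-1.24, edgeR adjusted p = 0.00972), and Itga10, a collagen receptor subunit (-2.91, 0.0136), fell. Of 18 other proteases and their regulators 2 were called higher and 1 lower, with a median of -0.0019 (0.35 with library-size scaling). Plasminogen (Plg) rose (0.76, edgeR adjusted p = 0.0278), as did Adam9 (0.91, 0.0189), and Adamts10, which acts on microfibrils, fell (-2.17, 0.00396).

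Of 21 tested genes of TGF-beta signalling, the main inducer of collagen genes, 4 were called higher and none lower, with a median of 0.32 (9 called higher and a median of 0.75 with library-size scaling). They were Ltbp4, which holds latent TGF-beta in the matrix (1.65, edgeR adjusted p = 0.00605), the inhibitory Smad6 (1.23, 0.0134), the receptor Tgfbr2 (0.89, 0.0152) and the mediator Smad2 (1.10, 0.0473). The count was 3 without HFD replicate 2, where Smad2 was not called (0.066). Over the 5 lists, 33.3% of the receptors, 25% of the glycoproteins, 19% of the TGF-beta genes, 11.1% of the other proteases and 4.55% of the biosynthesis genes were called higher, against 11.3% of all tested genes. Called lower were 9.52%, 12.5%, 0%, 5.56% and 9.09% in the same order, against 13.0%. The lists were chosen with earlier results of these data known, so these shares are descriptive only.

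Markers of the cells that make matrix differed between the groups too. The summed level of 13 hepatic stellate cell markers was 107, 140 and 83.2 CPM in HFD and 222, 257 and 214 CPM in HFD+allantoin livers, without overlap (2.1-fold, exact permutation p = 0.1). Of 12 tested, 6 were called higher, among them Lrat, which stores retinol, and Hgf, hepatocyte growth factor (8 and none lower without HFD replicate 2). Acta2, the actin of activated stellate and smooth muscle cells, had 1.20, 11.4 and 0.920 CPM in HFD and 0.0733, 0.355 and 0.810 CPM in HFD+allantoin livers. It was called lower with 6 libraries (-3.40, edgeR adjusted p = 0.0484) and not without HFD replicate 2 (-1.32, 0.281). Stellate markers thus lay higher in the same libraries as Timp2, Timp3, Col14a1 and Mmp19, and their part in these differences was not tested.

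Mesothelial markers, from the cells that cover the liver surface, summed to 9.50, 2.96 and 8.86 CPM in HFD and 29.5, 40.0 and 14.8 CPM in HFD+allantoin livers, and 4 of 6 tested were called higher (3 of 7 without HFD replicate 2). Kupffer cell and macrophage markers summed to 172, 405 and 217 CPM against 428, 463 and 469 CPM, and 3 of 11 were called higher (7 without HFD replicate 2). Neutrophil markers summed to 12.6 to 19.9 CPM against 4.61 to 11 CPM, with 1 of 4 tested called lower, and overlapped with library-size scaling. The part of these cells in the differences of the members was not tested either.

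Portal fibroblast markers had no call among 6 tested, and summed to 10.5 to 29.4 CPM and 10.2 to 16.7 CPM. Sinusoidal endothelial markers, at 141 to 271 CPM and 216 to 333 CPM, had 1 call among 12, lower Stab1, although 11 of the 12 log2 fold changes were above 0. Without HFD replicate 2, Kdr, Cdh5 and Pecam1 were called higher beside Stab1 lower, and with library-size scaling 4 were called higher and none lower. Cholangiocyte markers overlapped, at 50.8 to 172 CPM and 31 to 88.1 CPM, with Sox9 called lower among 4 tested. Smooth muscle markers summed to 14 CPM in HFD replicate 2, of which Acta2 supplied 11.4 CPM. The other HFD libraries held 2.73 and 2.17 CPM and the HFD+allantoin libraries 0.88 to 2.02 CPM. These sums did not overlap between groups, but they did with library-size scaling. Hepatocyte markers overlapped, at 96080 to 98354 CPM and 80659 to 108404 CPM, with 1 of 10 called higher and 3 lower, and markers of the labelled tissue were abundant in every library.

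**Figure D5:**
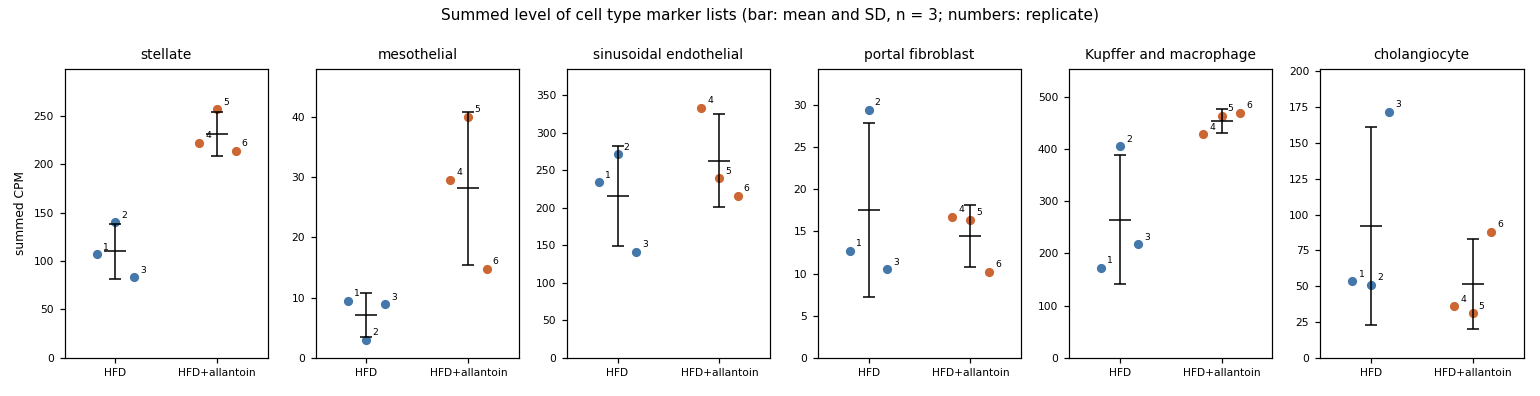
Summed CPM of marker lists of 6 liver cell types (y axis from 0) by library, with HFD in blue, HFD+allantoin in orange, replicate numbers beside the points and bars for mean and SD (n = 3). Stellate, mesothelial and Kupffer cell lists lie higher in every HFD+allantoin library, and the sinusoidal endothelial, portal fibroblast and cholangiocyte lists overlap.

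The adipose RNA of HFD replicate 2 was seen in defining markers. Perilipin 1 (Plin1) had 498 counts there and 0 to 1 elsewhere, and Fabp4 had 2593 counts there against 34 to 146. Of the 13 adipocyte markers 6 were tested and 1 was called, Adrb3, which was lower in all HFD+allantoin libraries, at 2.13 to 2.36 CPM against 12.1 to 34.0 CPM. Chains that were highest in this library included Col4a1, Col4a2, Lama1, Lama4, Lamc1, Col6a1 and Col6a2, and Col5a3, which is also known from fat, was not among them. Every one of the 7 members called lower stayed called without it, with log2 fold changes farther from 0 than in the fit on 6 libraries, from -3.71 for Col11a2 to -1.1 for Mmp14.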

How the data were processed

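The authors sequenced 6 mRNA libraries of mouse liver (SMARTer mRNA-Seq kit, Illumina HiSeq), filtered the reads and deposited raw read counts per gene. The builds GRCm38 and mm10 are named in the submitters' processing notes, and the aligner, counter and use of strand are not given in the sources used here. Of 54961 rows, 429 without an Ensembl identifier (0.197% to 0.306% of counts) were left out, and 54495 of 54532 identifiers were found in GENCODE M21 (GRCm38), which gave symbols, positions and exon lengths.

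Counts were fitted over all genes with edgeR 4.0.16 in R 4.3.3 (TMM factors, filterByExpr, quasi-likelihood test, Benjamini-Hochberg adjustment), with group as the only term. The script was tested on simulated data. Alternatives used DESeq2 1.42.0, limma-voom 3.58.1, other scalings and filters, trend removal in transcript length and GC content, and each library left out. Named genes were members called in the fit on 6 or 5 libraries, the 3 most abundant per class, the largest change per class and at most 4 called genes per pathway list, and further genes were named where a count or a neighbour made it necessary. Members and lists were chosen with earlier results of these data known. Promoters came from RefSeq (GRCm38.p6). Protein sequences were not analysed here. No batch or date is given, so neither can be told apart from the group.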

Additional observations from a re-analysis of the deposited data

How the results depend on the processing

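No paired analysis was possible because the libraries carry the numbers 1 to 3 and 4 to 6, with none shared between the groups. Over 550 refits of the named members, 508 gave the same call or lack of one, 32 lost a call, in the same direction, and 10 gained one. The median log2 fold change of the members (0.035) was 0.48 with library-size scaling, which moved the median of all tested genes from -0.03 to 0.38, and ran from -0.28 to 0.36 when a library was left out. The log2 ratio of the summed member level, -0.11, turned to 0.32 with library-size scaling. Leaving out a library gave 3 to 8 members called higher, 3 to 7 called lower and 1024 to 3781 calls over all genes, the lowest without HFD+allantoin replicate 5. Members stayed at 5 to 9 called higher and 5 to 8 called lower under the other alternatives. The 43 members not tested had at most 25 counts in a library, and Timp4 was the only one of them called under any alternative (with no filter).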
